A study of Mus musculus with 20 samples.

Results

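The subunit genes of the NMDA receptor were followed through RNA-seq of mouse hippocampus and neocortex. They are *Grin1*, *Grin2a*, *Grin2b*, *Grin2c*, *Grin2d* and *Grin3a*, 6 of the 35580 genes in the expression files, taken by gene symbol with all their annotated transcripts. These transcripts number 36 of the 113580 that were matched to the annotation. *Grin3b*, the remaining subunit gene, is given beside them for comparison.

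The samples came from male mice aged 13.5 months, 20 in all: 5 from wild-type (WT) and 5 from miR-324-null hippocampus, and as many from neocortex. The null mice lack the microRNA gene *Mir324* in all tissues, through a germline deletion made by injecting Cas9 and guide RNAs into zygotes. Founders of mixed C57BL/6 and CBA/ca origin were backcrossed to C57BL/6J, the strain named for all samples, and WT and null animals were then kept as separate lines, so the deletion and any other difference between the lines cannot be told apart. Polyadenylated RNA was sequenced, and every transcript has both an estimated count and a TPM, a level scaled to transcript length and to the total of the sample.

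NMDA receptors are glutamate-gated cation channels that need both glutamate and a co-agonist, glycine or D-serine, to open. Most of them pass little current until the membrane is depolarised. GluN1, the product of *Grin1*, is present in every receptor and binds the co-agonist. The GluN2 subunits, from *Grin2a* to *Grin2d*, bind glutamate and set the kinetics of the channel, and the GluN3 subunits bind glycine and lower its calcium permeability. Calcium entry through these receptors at hippocampal and neocortical synapses starts long-term potentiation and long-term depression. GluN2B predominates early in life, and GluN2A rises as synapses mature.

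*Grin1* transcripts differ by cassette exons, and the exons whose inclusion was measured are shown here. All lie on the minus strand of chromosome 2 in GRCm38. The N1 cassette, 63 bases or 21 codons at chr2:25311343-25311405, adds a stretch to the extracellular amino-terminal domain that is known to weaken inhibition of the receptor by protons. The C1 cassette, 111 bases or 37 codons at chr2:25294438-25294548, adds one to the intracellular tail. Capitals mark the cassette and lower case the 15 bases of the flanking exons, as read from transcripts Grin1-203 and Grin1-201:
N1 cassette: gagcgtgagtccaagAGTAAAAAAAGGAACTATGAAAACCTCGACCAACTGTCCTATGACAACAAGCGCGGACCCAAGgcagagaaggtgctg
C1 cassette: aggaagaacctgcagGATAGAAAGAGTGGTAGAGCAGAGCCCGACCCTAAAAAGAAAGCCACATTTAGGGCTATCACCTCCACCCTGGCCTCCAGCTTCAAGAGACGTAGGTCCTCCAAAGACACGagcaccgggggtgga

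The deleted locus encodes both arms of miR-324, which lie on the plus strand of chromosome 11 in GRCm38.p6 at chr11:70012060-70012082 and chr11:70012095-70012114. A microRNA represses messages through pairing of its seed, bases 2 to 8, with sites that are mostly in 3′UTRs. The mature sequences from RefSeq are given with the seed in capitals:
miR-324-5p: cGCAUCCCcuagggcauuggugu
miR-324-3p: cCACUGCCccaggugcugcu

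The 7-base matches to these seeds, GGGATGC and GGCAGTG on the transcript strand, were searched in the annotated 3′UTRs of the subunit genes. Matches were found in the main transcripts of *Grin2a* and *Grin2b*, and none in the 3′UTRs of *Grin1*, *Grin2c*, *Grin2d*, *Grin3a* or *Grin3b*. The authors cite reports of another form of miR-324-3p with a different seed, and only the seeds shown above were searched. The sites are shown with the match in capitals, since *Grin2a* and *Grin2b* are compared between genotypes further on:
Grin2a-206, miR-324-5p match: ggagactcccaGGGATGCtgaactatgca
Grin2b-201, miR-324-5p match: ctcacagccttGGGATGCtgccgtagagc
Grin2b-201, miR-324-3p match at base 16132: ggtctgagaatGGCAGTGaggagcaagcg
Grin2b-201, miR-324-3p match at base 16267: agggaatgtatGGCAGTGgaggaccccaa
Grin2b-201, miR-324-3p match at base 17408: gatatcataagGGCAGTGgctggttcagc

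The *Grin2a* match starts at base 8026 of a 3′UTR of 9929 bases, at chr16:9569795-9569801 on the minus strand. In *Grin2b*, whose annotated 3′UTR has 18865 bases, the miR-324-5p match starts at base 6024, at chr6:135726068-135726074 on the minus strand. The 3 matches to miR-324-3p start at bases 16132, 16267 and 17408, at chr6:135715960-135715966, chr6:135715825-135715831 and chr6:135714684-135714690. Such matches are common: among 14606 genes tested with an annotated 3′UTR, 10.97% held the miR-324-5p 7-mer and 19.8% the miR-324-3p 7-mer. Of the 93 genes among them with a 3′UTR of 9000 bases or more, 47.3% and 65.6% did. A match is a description of the letters and was not tested as a binding site.

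Summed estimated counts ranged from 12752439 to 19617765 per sample. *Mir324* is not listed in the files, so the deletion could not be checked from them. Markers of the labelled tissue were present: all 4 hippocampal markers (*Prox1*, *C1ql2*, *Spink8*, *Iyd*) were higher in hippocampus, and 5 of 6 neocortical markers higher in neocortex, in both genotypes. Some libraries stood apart. In miR-324-null hippocampus, replicates 1 and 2 had low values for long transcripts: the long-transcript score, the median log2 deviation of 386 genes with a mean effective transcript length of at least 8000 bases, was -0.19 and -0.27 in them, against -0.06 to 0.08 in the 8 other hippocampal samples and -0.03 to 0.15 in the neocortex. *Grin2a* and *Grin2b* are long, with main transcripts of 14634 and 24060 bases, so their hippocampal results in null mice are given with and without these libraries. The summed TPM of 4 choroid plexus markers reached 6910 in replicate 3 of WT and 5976 in replicate 5 of miR-324-null hippocampus, against 36.1 to 176 in the other hippocampal samples. In neocortex it was 1276 in replicate 2 of the null mice and 16.8 to 84.7 in the others.

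Counts were tested in edgeR by quasi-likelihood, p-values were adjusted over all genes tested (Benjamini-Hochberg), and an adjusted p of at most 0.05 counts as passed or called. Levels over samples are CPM (counts scaled to TMM-normalized library size), listed for replicates 1 to 5, and levels of different genes are compared in TPM of protein-coding transcripts only. The exception is the ratio of *Grin2a* to *Grin2b*, which uses the TPM of all transcripts of each gene. The samples of a tissue and genotype are taken as coming from different mice, which the sample labels do not state. The p-values measure the spread between these samples. Whether samples of the 2 tissues with the same number come from the same mouse is not stated. In tissue extracts, fewer cells of a type and less RNA per cell cannot be told apart.

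*Grin1* had the highest level of the family in every sample. Its coding TPM was 172 ± 13.7 in WT hippocampus, 165 ± 23.8 in miR-324-null hippocampus, 189 ± 8.93 in WT neocortex and 193 ± 9.27 in miR-324-null neocortex (SD, n = 5 each). That was 64.9% and 63.7% of the summed coding TPM of the 7 subunit genes in hippocampus and 72.1% and 69.6% in neocortex. The main GluN2 genes followed in WT hippocampus, with *Grin2a* at 33.0 ± 3.09, *Grin2b* at 26.7 ± 3.08 and *Grin2c* at 20.9 ± 0.757 coding TPM. *Grin3a* stood at 7.89 ± 1.20, *Grin2d* at 4.13 ± 0.410 and *Grin3b* at 0.505 ± 0.489. *Grin2a* and *Grin2b* overlapped there, while *Grin2c* lay below *Grin2b* in range, with 19.8 to 21.7 against 23.9 to 31.4 TPM.

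In WT neocortex the GluN2 genes stood closer, at 22.0 ± 1.55 for *Grin2a*, 20.7 ± 1.47 for *Grin2b* and 18.5 ± 0.955 for *Grin2c* in coding TPM. Each of these overlapped its neighbour in the order. The order of the mean levels was the same in the first 3 groups, and in miR-324-null neocortex *Grin2b* (26.7 ± 4.80) stood before *Grin2a* (22.7 ± 2.73), with overlapping ranges. Below *Grin2c*, the ranges of *Grin3a*, *Grin2d* and *Grin3b* did not overlap within any of the 4 groups. *Grin3b* ranged from 0 to 1.27 TPM over the 20 samples and had too few counts to be tested.

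**Figure D1:**
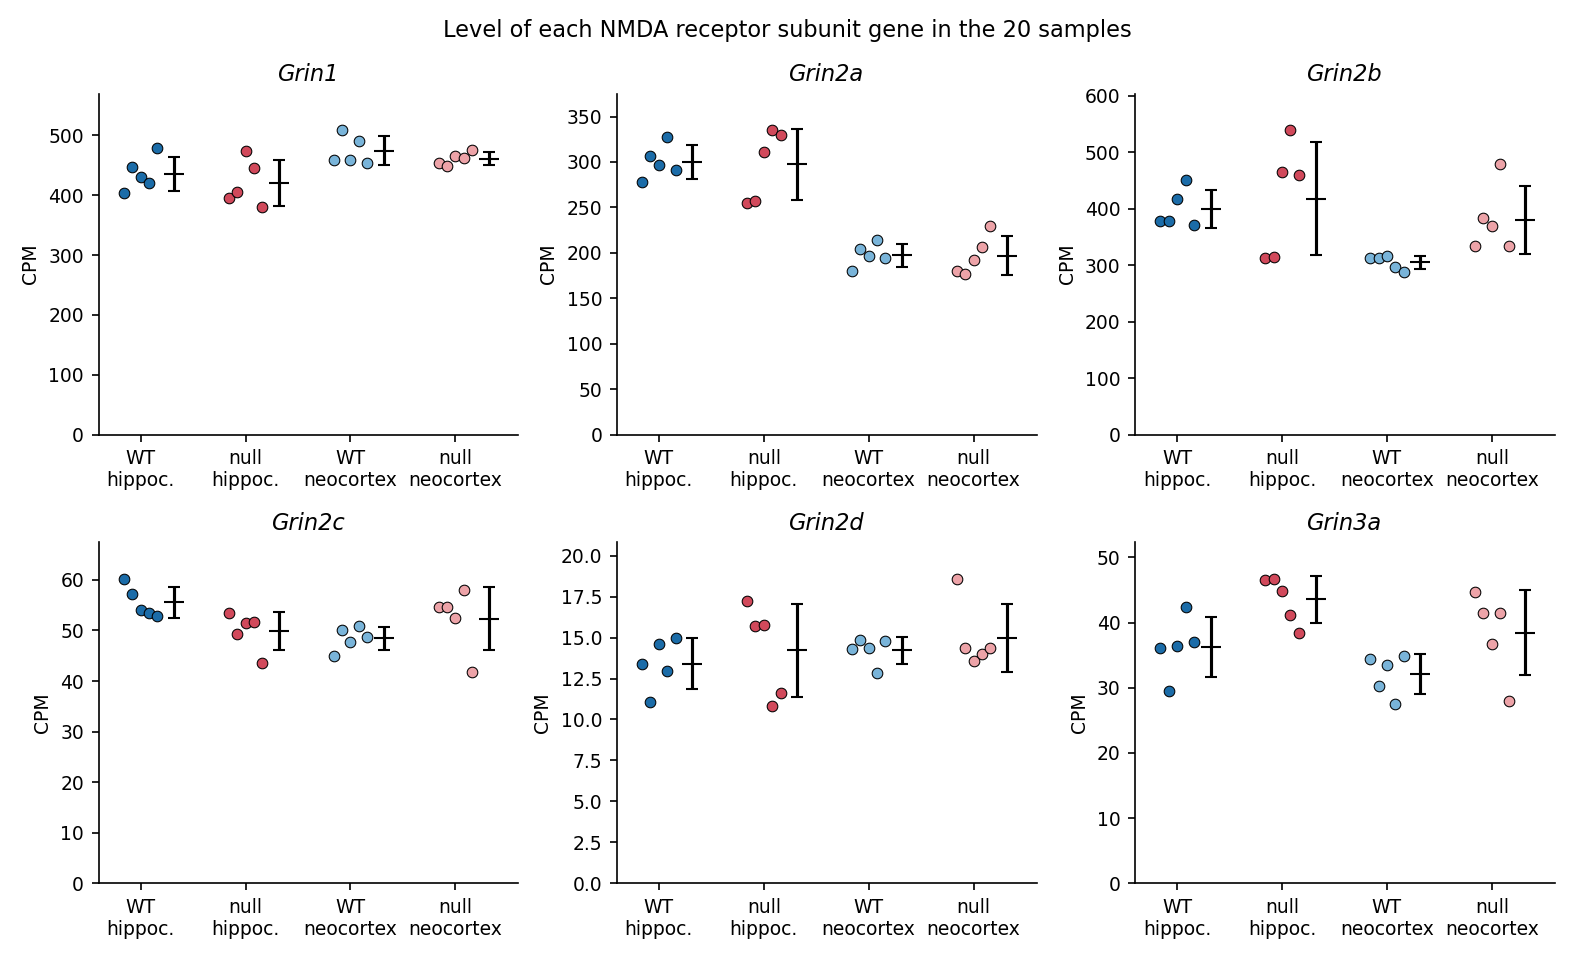
Level of each NMDA receptor subunit gene in CPM (vertical axis, one panel per gene, each starting at 0) by tissue and genotype. Points are samples, with 5 in each of the 4 groups, and bars are the mean and SD; *Grin2a* is higher in the hippocampus of both genotypes without overlap, and *Grin2b* is higher in all 5 miR-324-null than in all 5 WT neocortex samples.

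*Grin1* (ENSMUSG00000026959, chr2:25291181-25319187, minus strand) encodes the obligatory subunit, and its 4 groups overlapped. In hippocampus the WT samples had 404, 447, 430.0, 420.1 and 478 CPM and the miR-324-null samples 396, 405, 474, 445 and 381 CPM. In neocortex the WT samples had 459, 509, 458, 491 and 454 CPM and the miR-324-null samples 454, 449, 466, 462 and 476 CPM. The log2 difference, null minus WT, was -0.05 (standard error 0.07, adjusted p = 0.828) in hippocampus and -0.03 (0.04, adjusted p = 0.813) in neocortex. Hippocampus minus neocortex was -0.12 in WT (standard error 0.05, adjusted p = 0.0991) and -0.13 in miR-324-null mice (0.06, adjusted p = 0.169), with overlapping ranges in both. With the transcript-length offset, which corrects for which transcripts are used, the difference in null mice had the opposite sign at 0.10 (adjusted p = 0.408). Without WT hippocampus replicate 5 the WT tissue difference was -0.15 and passed (adjusted p = 0.0373).

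The N1 cassette of *Grin1* was used more in the neocortex of WT mice. The N1 share, the percent of the TPM of coding *Grin1* transcripts in those that hold the N1 cassette, was 17.2, 22.6, 11.04, 9.62 and 18.6% in WT hippocampus and 25.1, 29.2, 29.8, 39.5 and 23.6% in WT neocortex. Every WT neocortex sample was above every WT hippocampus sample. The means were 15.8% ± 5.42 and 29.4% ± 6.20 (SD, n = 5), and the difference of -13.6 percentage points gave p = 0.00794 by a two-sided exact permutation test, the smallest p that 5 against 5 samples allow, or 0.0317 adjusted over the 4 comparisons of this share. With any 1 WT neocortex replicate left out, or without WT hippocampus replicate 3 or 4, the difference stayed between -15.1 and -11.1 points. It no longer passed in these splits, with an exact permutation p of 0.0159 (adjusted 0.0635).

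In miR-324-null mice the N1 share was 16.7, 16.8, 15.4, 14.4 and 18.7% in hippocampus and 15.9, 31.7, 26.2, 22.6 and 32.3% in neocortex. Only replicate 1 of the neocortex, at 15.9%, fell among the hippocampal values. The mean difference of -9.33 points had an exact permutation p of 0.0317 (adjusted 0.0635), and without that replicate it was -11.8 points (adjusted 0.0159). Between genotypes the share differed by 0.596 points in hippocampus (adjusted p = 0.857) and by -3.68 points in neocortex (adjusted p = 0.571) in exact permutation tests. The tissue difference was not shown to depend on genotype, with an interaction of 4.27 points (exact permutation p = 0.386).

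**Figure D2:**
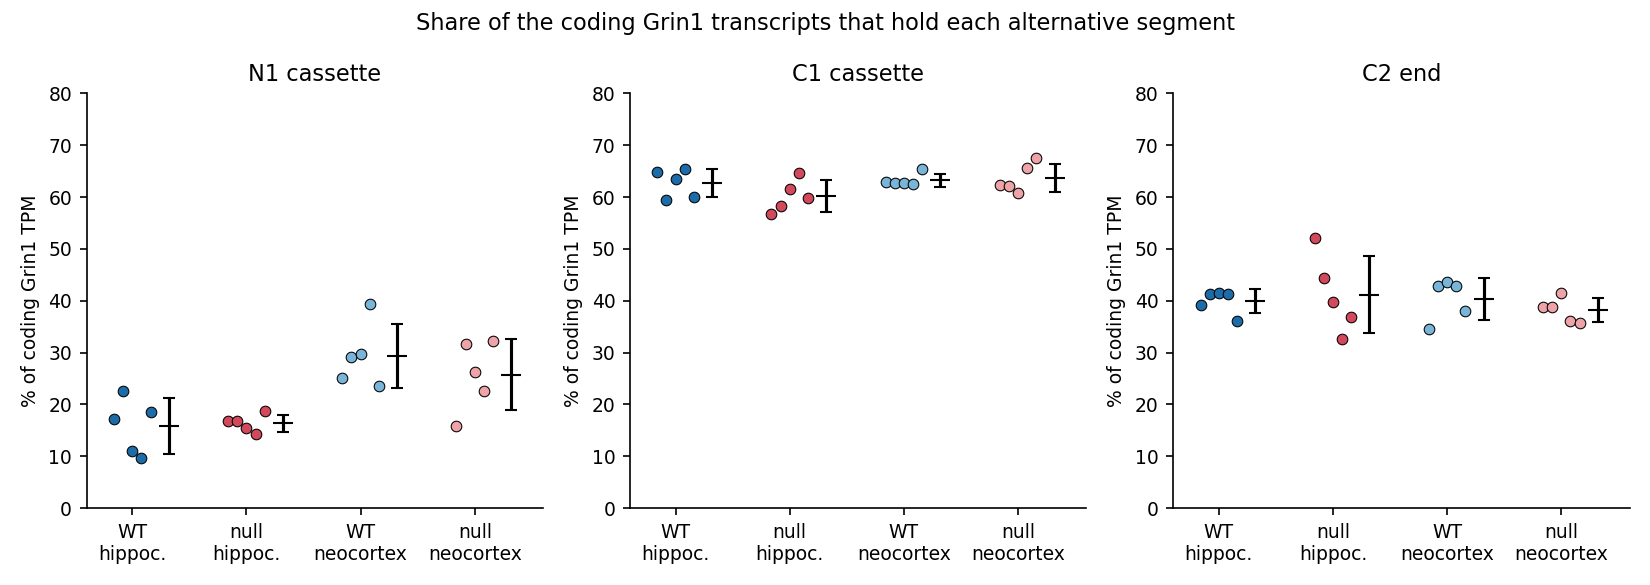
Share of the TPM of coding *Grin1* transcripts in those holding the N1 cassette, the C1 cassette and the C2 end (vertical axes, percent, from 0) by tissue and genotype. Points are samples, with 5 in each of the 4 groups, and bars are the mean and SD; the N1 share of WT neocortex lies above that of WT hippocampus in every sample, and the C1 share lies between 56.8% and 67.6% in all 20 samples.

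The C1 cassette, known to carry a signal that retains GluN1 in the endoplasmic reticulum, was in 62.7% ± 2.74 of coding *Grin1* TPM in WT hippocampus and 60.2% ± 3.07 in miR-324-null hippocampus. In neocortex it was in 63.3% ± 1.24 and 63.7% ± 2.78 (SD, n = 5). No comparison of this share passed the test, with the 4 differences between -3.47 and 0.450 percentage points and adjusted exact permutation p from 0.413 to 0.817. The transcripts that end in the C2 exon, against those ending in the alternative C2′ exon, held 39.9% ± 2.32 and 41.2% ± 7.44 in hippocampus and 40.4% ± 3.98 and 38.2% ± 2.34 in neocortex, WT first.

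The N1 share rests on 4 annotated transcripts. Most of its tissue difference in WT mice lay in Grin1-203, Grin1-204 and Grin1-208. Their mean TPM was 0.0308, 0.0776 and 0.0601 in WT hippocampus and 3.88, 9.49 and 9.75 in WT neocortex. Grin1-207 had 27.1 TPM in WT hippocampus and 32.8 in WT neocortex. Grin1-207, with N1, no C1 and the C2′ end, was the main one in every group, at 449 to 1986 estimated counts. It did not pass edgeR's test between tissues. Its log2 difference, hippocampus minus neocortex, was -0.22 in WT (standard error 0.24, adjusted p = 0.709) and -0.50 in null mice (0.14, adjusted p = 0.0723). The other N1 forms, Grin1-203, Grin1-204 and Grin1-208, were at most 8.43 estimated counts in WT hippocampus and at least 32.3 in WT neocortex. In miR-324-null mice the ranges overlapped: hippocampus replicate 4 had 9.92, 28.1 and 32.02 counts of them, and neocortex replicate 4 had 3.07, 13.9 and 10.1. Grin1-208, with N1, C1 and C2′, had 249, 411, 283, 569 and 95.6 estimated counts in WT neocortex and at most 5.82 in WT hippocampus. In miR-324-null neocortex it had 42.1, 239, 86.5, 10.1 and 563 counts, and in miR-324-null hippocampus at most 0.0775 apart from replicate 4, which had 32.02. Grin1-204, with N1, C1 and C2, had 191, 462, 345, 617 and 102 counts in WT neocortex and at most 8.43 in WT hippocampus. These transcripts all hold N1 and differ from one another only in the C1 cassette and the last exon, which lie far from N1 in the message. Kallisto divides the reads they share, so the split between them is less certain than the N1 share of all 4.

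Of the 36 transcripts of the 6 genes, 16 passed the filter on low counts in the hippocampal genotype comparison and 20 in each of the others. In WT mice 6 of 20 differed between tissues (2 higher and 4 lower in hippocampus), where 10.1% of all 35272 transcripts tested did. The 4 lower ones were Grin1-208 (adjusted p = 0.000303), Grin1-204 (0.000524), Grin1-203 (0.000572) and Grin1-214 (0.0142), all of edgeR's test. Grin1-203, Grin1-204 and Grin1-208 failed the filter in the hippocampal genotype comparison. They entered the WT tissue test only through their neocortical counts, so their calls add no support beyond those counts. Grin1-214 is a noncoding transcript of 3437 bases that reads through the N1 exon, and it had 15.5, 29.4, 17.04, 23.96 and 30.3 estimated counts in WT hippocampus and 42.6, 51.5, 81.3, 99.2 and 55.01 in WT neocortex. Its log2 difference was -1.45 (standard error 0.31) in WT and -1.32 (0.32, adjusted p = 0.0350) in miR-324-null mice. The 2 higher ones, Grin2a-206 and Grin2b-201, are the main transcripts of their genes.

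In miR-324-null mice 2 of 20 transcripts differed between tissues, Grin2a-206 and Grin1-214, where 6.73% of all 36337 transcripts did. Without null hippocampus replicate 4, Grin1-203, Grin1-204 and Grin1-208 were called as well and the count was 5 of the transcripts tested. Without null neocortex replicate 1 it was 4. It was 1 with any one of 7 other replicates left out (null hippocampus 1, 2 or 5, or null neocortex 2, 3, 4 or 5), each time through the loss of Grin1-214. No member transcript was called between genotypes by edgeR, where 0.0291% of all transcripts were in hippocampus and 0.0249% in neocortex. At an unadjusted p under 0.05 there were 1 (Grin2c-202) in hippocampus and 2 (Grin1-209 and Grin2b-201) in neocortex, and DESeq2 called 0 in both, with 3 of the 20 in neocortex given no adjusted p.

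**Figure D3:**
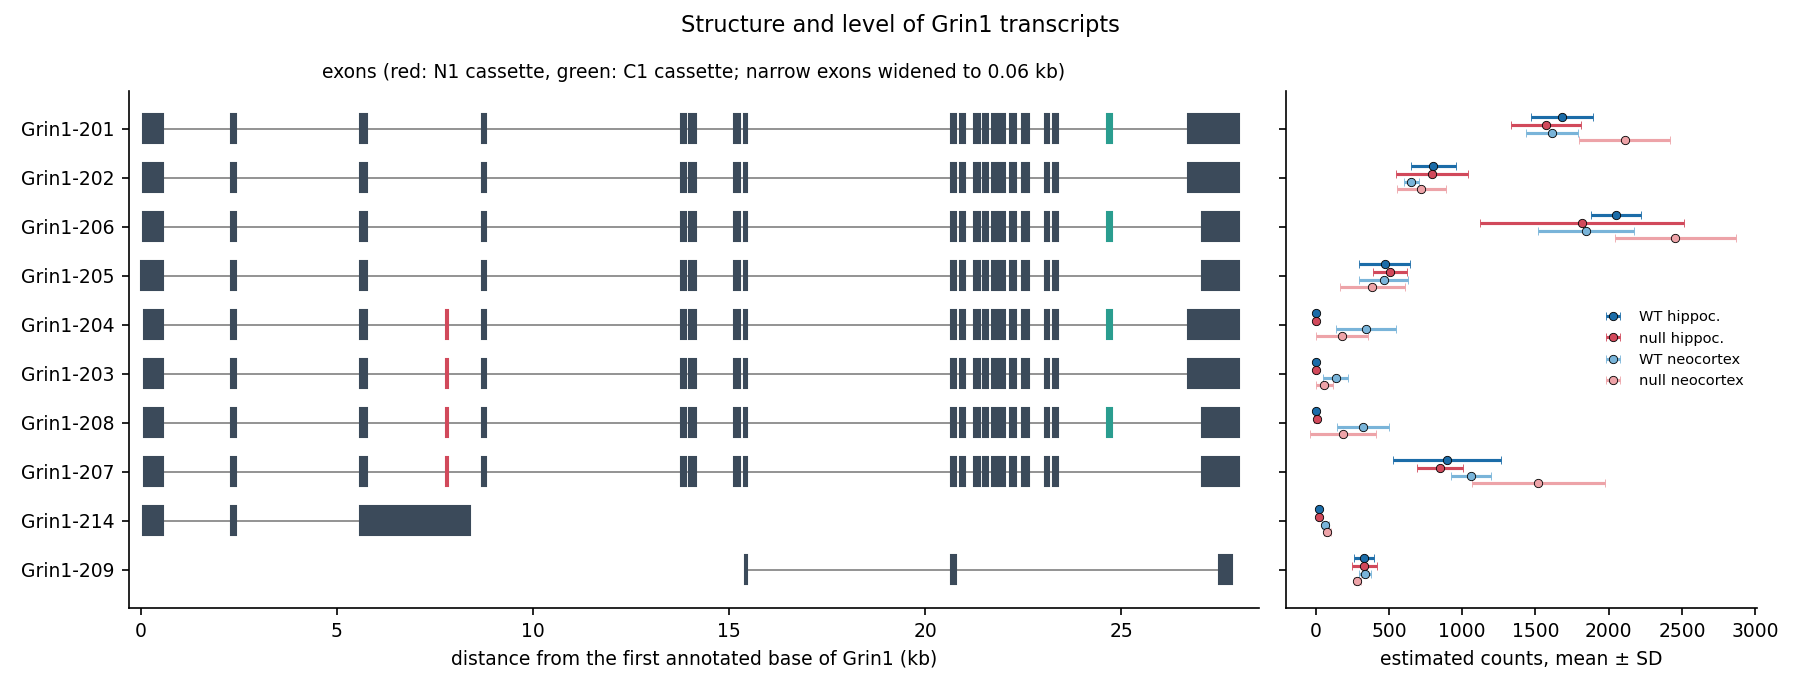
Exons of the 8 coding *Grin1* transcripts, Grin1-214 and Grin1-209 (left, distance in kb along the gene, with the N1 cassette in red and the C1 cassette in green) and their estimated counts (right, mean and SD of 5 samples in each of the 4 groups). Grin1-203, Grin1-204 and Grin1-208 reach 249.96, 617 and 569 counts in single neocortex samples and at most 32.02 in hippocampus.

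One short noncoding *Grin1* transcript, Grin1-209 (527 bases), took 36.4% of the gene's summed TPM with 4.74% of its counts. This is why levels of *Grin1* are given above from coding transcripts. In neocortex Grin1-209 had 322, 406, 287, 337 and 336 estimated counts in WT and 296, 278, 305, 244 and 300.2 in miR-324-null mice, a log2 difference of -0.48 (standard error 0.16, adjusted p = 0.672) that did not pass. The other genes had 1 main transcript each. Grin2a-206 held 98.2% of its gene's TPM, Grin2b-201 99.8%, Grin2c-201 76.4%, Grin2d-201 88.0% and Grin3a-201 79.4%.

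The tissue comparison asks how the receptor's subunits are distributed between the hippocampus and the neocortex of the same genotype. In WT mice 3 of 6 subunit genes differed, *Grin2a*, *Grin2b* and *Grin2c*, all higher in hippocampus, where 36.1% of 14894 genes differed and 18.1% were higher in hippocampus. In miR-324-null mice 1 of 6 did, *Grin2a*, higher in hippocampus, where 27.4% of 15033 genes differed and 13.8% were higher in hippocampus. DESeq2 and the fit with the replicate number as a block also called 3 and 1.

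*Grin2a* (ENSMUSG00000059003, chr16:9567898-9995560, minus strand) encodes GluN2A, the subunit of fast receptors at mature synapses. It had 278, 306, 297, 327 and 291 CPM in WT hippocampus and 179.7, 204, 196, 214 and 194 CPM in WT neocortex. In miR-324-null mice it had 255, 257, 311, 335 and 330.1 CPM in hippocampus and 180.0, 176, 192, 207 and 229.8 CPM in neocortex. Every hippocampal sample was above every neocortical one. The WT tissue difference was 0.60 on the log2 scale (standard error 0.06, adjusted p = 2.28e-06), a 1.52-fold higher level in hippocampus. In miR-324-null mice it was also 0.60 (standard error 0.10, adjusted p = 0.000636).

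Between genotypes *Grin2a* overlapped in both tissues, with log2 differences of -0.01 (standard error 0.08, adjusted p = 0.981) in hippocampus and 0.003 (0.07, adjusted p = 0.995) in neocortex. Within miR-324-null hippocampus its lowest values, 255 and 257 CPM, were those of replicates 1 and 2. Without them the hippocampal genotype difference had the opposite sign at 0.12 (adjusted p = 0.513), and the tissue difference in null mice was 0.73 (adjusted p = 0.000225).

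*Grin2b* (ENSMUSG00000030209, chr6:135713233-136173511, minus strand) encodes GluN2B, the subunit with slow kinetics that binds CaMKII. It had 378, 378, 418, 451 and 372 CPM in WT hippocampus and 312, 313, 316, 296 and 288 CPM in WT neocortex. The WT hippocampus was higher in every sample. The tissue difference in WT was 0.39 on the log2 scale (standard error 0.06, adjusted p = 0.000147), or 1.31-fold.

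In miR-324-null mice *Grin2b* had 312, 315, 465, 539 and 459 CPM in hippocampus and 333, 383, 369, 479.9 and 335 CPM in neocortex. Replicates 1 and 2 of the hippocampus, those with the low long-transcript scores, lay below the whole neocortical range, and replicates 3, 4 and 5 lay at its upper end or above it. The log2 tissue difference was 0.15 (standard error 0.16, adjusted p = 0.527). Without replicates 1 and 2, an alternative chosen after seeing the data, it was 0.37 (adjusted p = 0.0469), and with the long-transcript score as a covariate 0.46 (adjusted p = 0.00267).

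**Figure D4:**
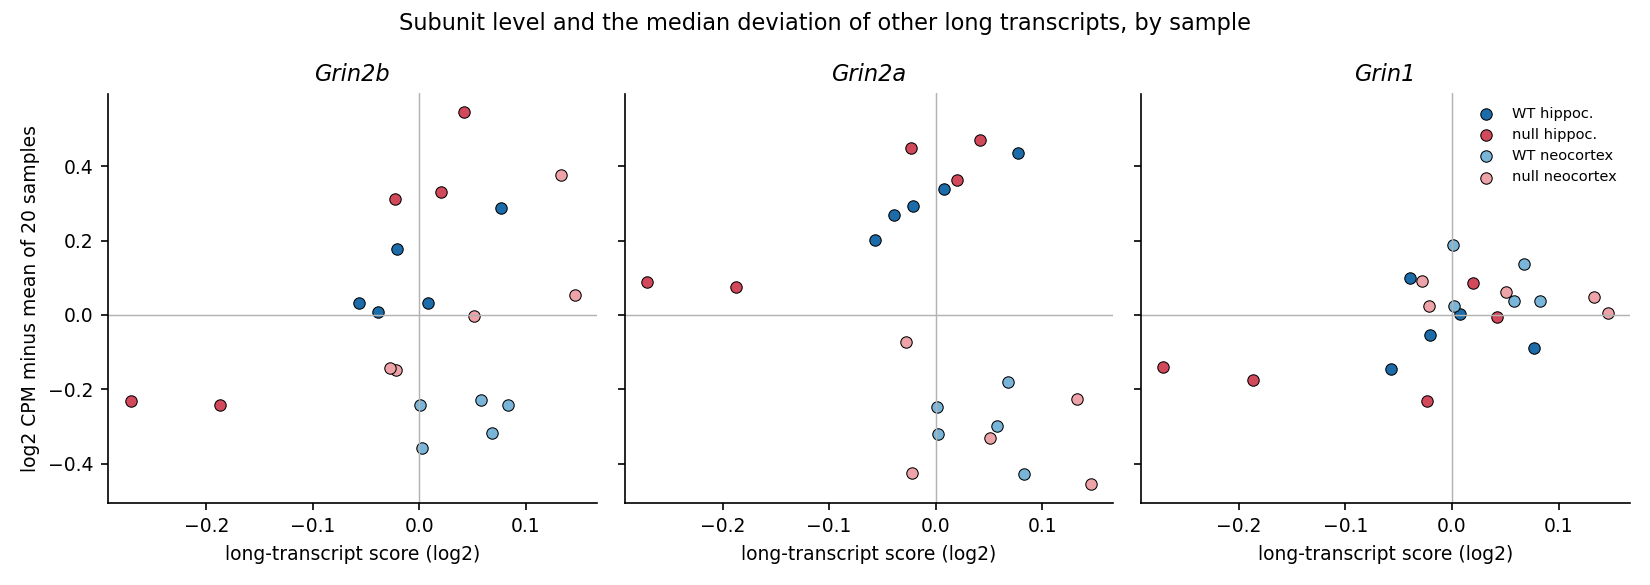
*Grin2b*, *Grin2a* and *Grin1* levels, as log2 CPM minus the mean of the 20 samples (vertical axis), against the long-transcript score of each sample (horizontal axis, log2). Points are samples coloured by tissue and genotype, and the miR-324-null hippocampus samples with scores of -0.19 and -0.27 have the lowest *Grin2b* and *Grin2a* values of their group.

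The genotype comparison asks whether loss of miR-324 is accompanied by a change of the subunit messages. In hippocampus 0 of 6 subunit genes passed edgeR's test, where 0.115% of 14796 genes did. At an unadjusted p under 0.05 there were 2 (*Grin2c* and *Grin3a*), as 11.1% of all genes tested had, and DESeq2 called 0. In neocortex 0 of 6 passed, where 0.315% of 14930 genes did. There 2 had an unadjusted p under 0.05 (*Grin2b* and *Grin3a*), as 12.2% of all genes had, and DESeq2 called 1, *Grin2b*.

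*Grin2b* in neocortex was the member nearest the threshold. Every miR-324-null sample, from 333 to 480 CPM, was above every WT sample, from 288 to 316 CPM. The log2 difference was 0.32 (standard error 0.09, adjusted p = 0.163 in edgeR's test). The call depended on the test: DESeq2 gave the same difference with an adjusted p of 0.0317, or 0.0463 with the transcript-length offset. It also depended on 1 library, since without null neocortex replicate 5 the difference was 0.37 and passed in edgeR (adjusted p = 0.0334), in a fit that called 566 genes where the fit of all samples called 47. With the long-transcript score as a covariate it was 0.29 (adjusted p = 0.106). Without null neocortex replicate 2, the library with the high choroid plexus sum, it was 0.32 (adjusted p = 0.246). In hippocampus the difference was 0.07 (standard error 0.14, adjusted p = 0.904), with the null samples from 312 to 539 CPM spanning the WT range of 372 to 451. Without the null replicates 1 and 2 it was 0.29 there (adjusted p = 0.286).

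Summed levels of some marker lists differed in range between the genotypes in neocortex. The summed TPM of 3 markers of inhibitory neurons (*Gad1*, *Gad2*, *Slc32a1*) was 249 to 287 in WT and 289 to 390.4 in miR-324-null neocortex, without overlap. The 3 interneuron class markers (*Pvalb*, *Sst*, *Vip*) overlapped, with sums of 631.9 to 687 TPM in WT and 559.1 to 751.2 TPM in null. The 3 striatal markers (*Drd1*, *Adora2a*, *Ppp1r1b*) summed to 95.9 to 219.9 in WT and 159 to 366 in null. The 4 hippocampal markers summed to 4.325 to 9.696 TPM in WT and to 26.45, 15.96, 8.735, 15.64 and 7.033 TPM in null neocortex. The 6 neocortical markers summed to 481 to 526 TPM in WT and to 374, 344, 430.0, 444 and 598 TPM in null neocortex, so that replicates 1 to 4 were below and replicate 5 above the WT range. No gene of any marker list was called between genotypes in either tissue by edgeR. The paper, which used DESeq2, reported *Gad1* as higher in miR-324-null hippocampus and not significantly changed in neocortex. The part of tissue composition in the *Grin2b* values was not tested.

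The balance of the main GluN2 subunits was followed as the log2 ratio of *Grin2a* to *Grin2b* TPM. It was 0.30, 0.44, 0.25, 0.28 and 0.39 in WT hippocampus and -0.05, 0.11, 0.05, 0.27 and 0.17 in WT neocortex. In miR-324-null mice it was 0.44, 0.44, 0.17, 0.05 and 0.27 in hippocampus and -0.14, -0.37, -0.20, -0.46 and 0.19 in neocortex. All 10 hippocampal samples had more *Grin2a* than *Grin2b* per length, and 4 of 5 null neocortex samples had less, replicate 5 being the exception. The group means were 0.33 ± 0.08, 0.11 ± 0.12, 0.28 ± 0.17 and -0.20 ± 0.25 in that order (SD, n = 5).

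The ratio was higher in hippocampus by 0.22 in WT (two-sided exact permutation p = 0.0159, adjusted over 4 comparisons 0.0476) and by 0.47 in miR-324-null mice (p = 0.0238, adjusted 0.0476). The ranges overlapped in both. The call in null mice depended on single libraries. Without null hippocampus replicate 1, 2 or 5, or null neocortex replicate 1, 2, 3 or 4, it was 0.41 to 0.49 with an adjusted p of 0.0635 or 0.0794. Between genotypes the ratio differed by -0.31 in neocortex (exact permutation p = 0.0476, adjusted 0.0635) and by -0.06 in hippocampus (adjusted 0.524). Without null hippocampus replicates 1 and 2 the hippocampal genotype difference was -0.17 (adjusted exact permutation p = 0.0714) and the tissue difference in null mice 0.36 (adjusted 0.0893). Without null neocortex replicate 5 the neocortical difference was -0.40 and passed (adjusted exact permutation p = 0.0159). The difference between the tissues in this genotype effect, 0.25, had an exact permutation p of 0.161.

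*Grin2c* (ENSMUSG00000020734, chr11:115249169-115267243, minus strand) encodes GluN2C, a subunit of low magnesium sensitivity known from cerebellar granule cells and astrocytes. In hippocampus it had 60.3, 57.2, 54.05, 53.4 and 52.9 CPM in WT and 53.5, 49.2, 51.4, 51.6 and 43.6 CPM in miR-324-null mice. In neocortex it had 44.9, 50.1, 47.7, 50.8 and 48.7 CPM in WT and 54.7, 54.7, 52.4, 57.9 and 41.7 CPM in null mice. In WT every hippocampal sample was above every neocortical one, with a log2 difference of 0.20 (standard error 0.05, adjusted p = 0.00817), or 1.15-fold. With the long-transcript score as a covariate it was 0.16 and no longer passed (adjusted p = 0.0519).

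In miR-324-null mice the tissue difference of *Grin2c* was -0.06 (standard error 0.09, adjusted p = 0.651). The null minus WT difference was -0.16 in hippocampus (standard error 0.06, adjusted p = 0.392) and 0.12 in neocortex (0.08, adjusted p = 0.601). These genotype differences had opposite signs, and their difference, -0.27 (standard error 0.10), had an unadjusted p of 0.0172 and an adjusted p of 0.852 in edgeR's interaction test. No subunit gene passed that test, where 0.0195% of 15391 genes did; 1 of 6, *Grin2c*, had an unadjusted p under 0.05 and DESeq2 called 0. Of the 5 astrocyte markers (*Aqp4*, *Gfap*, *Aldh1l1*, *Slc1a2*, *Gja1*), 3 were higher and 1 lower in WT hippocampus, and their summed TPM was 772 to 990.2 there and 679.9 to 749 in WT neocortex. The part of astrocyte content in the *Grin2c* values was not tested.

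*Grin2d* (ENSMUSG00000002771, chr7:45831883-45878378, minus strand) encodes GluN2D, a slow subunit known from interneurons. It had 13.4, 11.04, 14.6, 12.99 and 14.997 CPM in WT and 17.2, 15.7, 15.8, 10.8 and 11.6 CPM in miR-324-null hippocampus. In neocortex it had 14.3, 14.8, 14.3, 12.9 and 14.8 CPM in WT and 18.6, 14.4, 13.5, 14.02 and 14.4 CPM in null mice. The 4 groups overlapped, and no comparison passed, with log2 differences between -0.09 and 0.08.

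*Grin3a* (ENSMUSG00000039579, chr4:49661611-49845744, minus strand) encodes GluN3A, a glycine-binding subunit that is most abundant in the first weeks of life. In hippocampus it had 36.1, 29.4, 36.4, 42.4 and 37.04 CPM in WT and 46.5, 46.8, 44.9, 41.2 and 38.4 CPM in miR-324-null mice. In neocortex it had 34.5, 30.3, 33.4, 27.5 and 34.8 CPM in WT and 44.8, 41.5, 36.7, 41.4 and 27.96 CPM in null mice. The null mean was higher in both tissues, at 43.6 ± 3.63 against 36.3 ± 4.61 CPM and 38.5 ± 6.55 against 32.1 ± 3.13 CPM (SD, n = 5), with overlapping ranges. Neither difference passed edgeR's test, at 0.26 in hippocampus (standard error 0.09, adjusted p = 0.340) and 0.27 in neocortex (0.11, adjusted p = 0.367). Without null neocortex replicate 5, the lowest of its group at 27.96 CPM, the neocortical difference was 0.36 and passed (adjusted p = 0.0242 in edgeR's test). That fit called 566 genes, where the fit of all samples called 47. Without null neocortex replicate 2 the difference was 0.24 (adjusted p = 0.514). In hippocampus the null replicates 1 and 2, those with the low long-transcript scores, had the highest values. Without them the hippocampal difference was 0.20 (adjusted p = 0.542).

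Between tissues *Grin3a* differed by 0.18 in WT (standard error 0.09, adjusted p = 0.160) and 0.19 in miR-324-null mice (0.11, adjusted p = 0.236). Without WT hippocampus replicate 2, the lowest of its group at 29.4 CPM, the WT difference was 0.24 and passed (adjusted p = 0.0332). The transcript Grin3a-202 varied from 0 to 239.9 estimated counts between samples, and Grin3a-201 from 213 to 732.

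**Figure D5:**
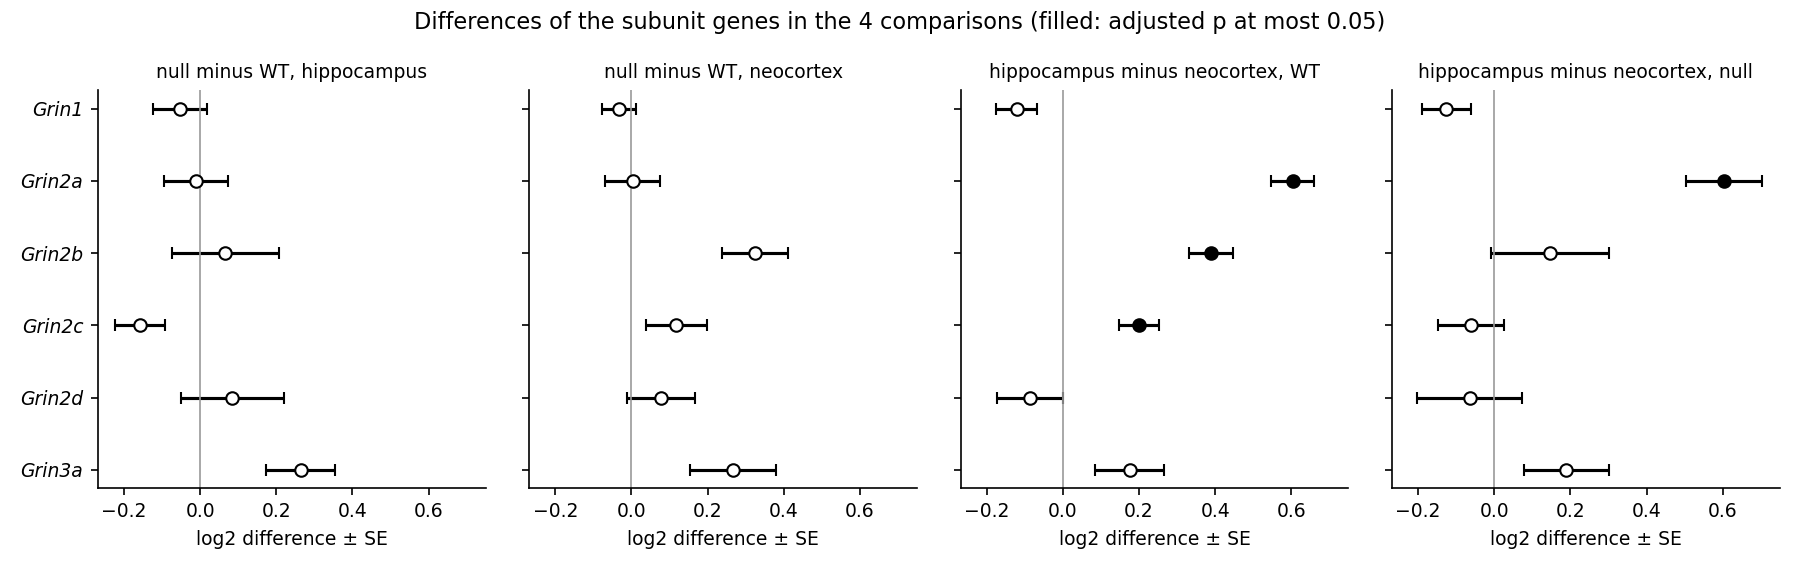
Log2 difference and its standard error (horizontal axis) of each subunit gene (rows) in the 4 comparisons, 5 samples against 5, with filled points for an adjusted p of at most 0.05. *Grin2a* stands at 0.60 in both tissue comparisons, *Grin2b* at 0.39 in the WT and 0.15 in the null comparison of tissues, and no genotype difference passed the test.

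The other genes of the pathway were 50 listed partners of the receptor, of which 46 were tested. None was called between genotypes by edgeR in either tissue. In hippocampus 7 of them had an unadjusted p under 0.05 and in neocortex 9, against 11.1% and 12.2% of all genes tested, DESeq2 called 0 in both, and the median log2 difference was -0.04 and -0.003, against 0.001 and 0.005 over all genes tested. Between tissues in WT mice 20 were higher in hippocampus, 10 lower and 16 not called, with a median of 0.12 against -0.001 over all genes, of which 36.1% were called and 18.1% were higher. In miR-324-null mice 14 were higher, 9 lower and 23 not called, with a median of 0.09 against 0.01 over all genes, of which 27.4% were called and 13.8% were higher. The counts by role are read against the same shares.

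By role, the kinases and phosphatases acting on the receptor had 8 of 14 higher and 3 lower in WT hippocampus, and 7 and 3 in null. The downstream partners had 5 of 8 higher and 2 lower in WT, and 3 and 1 in null. The scaffolding and trafficking genes had 5 of 14 higher and 5 lower in WT, and 3 and 5 in null. The co-agonist supply genes had 2 of 8 higher in WT and 1 in null, and neither of the 2 kynurenine pathway genes tested was called.

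Large partner differences between tissues included the following. *Nos1*, the neuronal nitric oxide synthase tethered to the receptor through PSD-95, had 109 ± 15.8 CPM in hippocampus and 38.3 ± 4.52 in neocortex of WT mice, a log2 difference of 1.51 (standard error 0.10, adjusted p = 1.37e-07), and a difference of 1.04 (0.18) in null mice. *Camk2b*, the beta chain of CaMKII, was higher by 0.77 (standard error 0.06) in WT hippocampus. *Rasgrf2*, a Ras exchange factor, was lower in hippocampus, with differences of -1.09 (standard error 0.07) in WT and -0.96 (0.10) in null. *Lin7a*, a scaffold of receptor transport, had -0.87 (standard error 0.09) and -0.97 (0.10). *Ptpn5*, the phosphatase STEP that dephosphorylates GluN2B, was lower in null hippocampus, with a difference of -0.79 (standard error 0.09). The tissue comparisons also carried differences in cell markers. In WT hippocampus all 3 neuronal, all 3 inhibitory and 2 of 3 striatal markers were lower. Of the 2 excitatory markers, 1 was higher and 0 lower there. In null hippocampus 2 neuronal, 3 inhibitory and 3 striatal markers were lower, and the 2 excitatory markers were higher. The part of these marker differences in the partner values was not tested.

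After the mean of each of the 4 groups was taken off, the members varied among themselves over the 20 samples in log2 CPM. For *Grin2a* and *Grin2b* Pearson's r was 0.62, but 0.19 in the 18 samples without null hippocampus replicates 1 and 2, so the value rests on those libraries. For *Grin2a* and *Grin2d* r was -0.62 (-0.43 without them), and for *Grin2a* and *Grin3a* -0.59 (-0.59). The gene most like *Grin2b* in this sense was *Pde4dip* (r = 0.93), followed by *Lrrc7* (0.93) and *Trip12* (0.92), and those most like *Grin2a* were *Unc13a* (0.88), *Alpk1* (0.87) and *Luzp1* (0.87). For *Grin1* they were *Plec* (0.81), *Lrrc49* (0.80) and *Nat8l* (0.79), and for *Grin2c* *Lss* (0.86) and *Gbp7* (0.83). For *Grin2d* they were *Dtx1* (0.87), *Unc119* (0.85) and *Znhit2* (0.85), and for *Grin3a* *Wdr6* (0.88), *Maged2* (0.88) and *Mex3a* (0.85). These values are descriptions of 20 samples chosen as the highest of 15391 genes, and differences in depth and long-transcript score between samples enter all genes of a sample. Without the 2 libraries the values for these genes lay between 0.75 and 0.91.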

How the data were processed

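RNA-seq was analysed in 20 samples in 4 groups of 5, with tissue, genotype and replicate number taken from the sample labels. Libraries were made with a stranded mRNA kit and sequenced on an Illumina NextSeq. The authors quantified reads with kallisto (version not given in the sources used here) against a mouse GRCm38 transcriptome, and the submitters' notes name GRCh38 although the identifiers are mouse. The deposited files hold, per transcript, an estimated count, in which kallisto divides reads shared by several transcripts, and the TPM. Whether the strand of reads was used is not stated. No member overlaps an exon of another annotated gene.

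Of 115270 transcripts, 113580 were matched by identifier to GENCODE vM21, and the 1690 others, with at most 0.556% of the counts of a sample, were left out. Estimated counts were summed per gene, or kept per transcript, and rounded. They were tested with edgeR 4.0.16 in R 4.3.3 (quasi-likelihood test, TMM, default low-count filter) on the 10 samples compared, or on all 20 for the interaction, with Benjamini-Hochberg adjustment over all features and a threshold of 0.05. Ratios and shares were compared by two-sided exact permutation tests over 252 arrangements, adjusted over 4 comparisons. The function for these tests was checked against scipy 1.17.1. The steps were tested on simulated data.

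The genes named were the members, *Grin3b*, at most 5 called partner genes per comparison by size, the 3 genes most like each member, and transcripts with at least 5% of their gene's TPM or a call. Some genes that meet this rule are not reported here. The members and all gene lists were chosen with earlier results of these data known. Alternatives were DESeq2 1.42.0, its size factors in edgeR, other low-count filters, a transcript-length offset, all samples in one fit, a block for the replicate number, and the removal of single replicates. For ratios and shares they were a pseudocount of 1 TPM, coding or all transcripts, and counts in place of TPM. The long-transcript covariate and the joint removal of 2 libraries were chosen after seeing the data.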

Additional observations from a re-analysis of the deposited data

Results flagged for a closer look

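In 3 of 36 groups of 5 values (6 genes in CPM, the *Grin2a* to *Grin2b* ratio and the N1 and C1 shares of *Grin1*, in each of 4 groups), 1 sample lay far from the other 4: its gap to the nearest, divided by the range of the group, was above the limit of 0.71 for 5 samples. Chance alone passes this limit in about 1 of 20 groups. *Grin2d* stood at 12.85 CPM in WT neocortex replicate 4, below 14.3 to 14.8 in the other replicates. It stood at 18.61 CPM in miR-324-null neocortex replicate 1, above 13.5 to 14.4 in the others. The *Grin1* C1 share was 65.46% in WT neocortex replicate 5, above 62.5% to 62.9% in the others.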

How the results depend on the processing

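Counts of calls, ratios and shares kept their direction and side of the threshold in 280 recomputed values, moved in 18, lost the threshold in 18, passed it in 3 and changed sign in 8. Single genes and transcripts kept both in 1623, changed sign below the threshold in 128, passed in 15 and lost it in 11. The cause of these changes was not tested.

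The genotype count in neocortex was 1 with DESeq2 and 1 with DESeq2 and the length offset, and 0 to 2 with 1 replicate left out, the 2 being *Grin2b* and *Grin3a* without null neocortex replicate 5. The tissue count in null mice was 2 with the long-transcript covariate and 2 without null hippocampus replicates 1 and 2. The transcript count in the same comparison was 1 without a filter, 4 with DESeq2, 1 without those 2 replicates, and 1 to 5 with 1 replicate left out.

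With the replicate number as a block, no call of a subunit gene changed, and the transcript count in null mice was 1. The block gave the same ratio differences, 0.22 in WT and 0.47 in null mice (adjusted exact permutation p = 0.125 for both), and the same N1 difference of -13.61 points in WT (adjusted 0.25). Its smallest unadjusted p is 0.0625, so it could pass no ratio or share. Over genes, the deviations of same-numbered samples from their group means correlated at -0.172 to 0.177. Between tissues in null mice all 5 correlations were positive (0.017 to 0.177), 3 of them above 0.1, and in no comparison were all 5 above 0.1 or each sample most like its own number. The labels do not say whether the numbers pair samples. Over all genes the block called 4 between genotypes in hippocampus and 30 in neocortex.

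The tissue ratio difference in null mice was 0.36 without null hippocampus replicates 1 and 2 (adjusted exact permutation p = 0.0893) and 0.41 to 0.57 with 1 replicate left out. The genotype ratio difference with 1 left out was -0.40 to -0.24 in neocortex and -0.10 to 0.000606 in hippocampus, where only the loss of null replicate 4 gave the positive sign. With 1 left out, the N1 share differed by -15.31 to -11.1 points between tissues in WT, by -11.8 to -7.70 in null mice and by -0.953 to 2.30 between genotypes in hippocampus, negative without WT replicate 3 (-0.596) or 4. Over all *Grin1* transcripts the hippocampal genotype difference was -0.00132 points and the tissue difference in null mice -8.17 (adjusted exact permutation p = 0.0476). The C1 share differed by -1.27 to 0.225 points between tissues in WT, positive without hippocampus replicate 2 or 5 (0.0870), and by -0.511 to 1.16 between genotypes in neocortex, negative without null replicate 4 (-0.0316) or 5.

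The log2 differences whose sign changed were below the threshold both ways. With the transcript-length offset the log2 difference was 0.000457 for *Grin1* between genotypes in hippocampus, 0.0977 for *Grin1* between tissues in null mice, 0.18 for *Grin1* in the interaction. With DESeq2 and that offset it was 0.00125 for *Grin1* between genotypes in hippocampus, 0.0899 for *Grin1* between tissues in null mice, 0.18 for *Grin1* in the interaction. With the long-transcript covariate it was -0.0242 for *Grin2d* and 0.0863 for *Grin2a* between genotypes in hippocampus, -0.11 for *Grin2d*, 0.00708 for *Grin1* and 0.0572 for *Grin2a* in the interaction. Without null hippocampus replicates 1 and 2 it was -0.0716 for *Grin2d*, 0.12 for *Grin2a*, 0.0879 for Grin1-206, -0.0699 for Grin1-202, -0.31 for Grin1-209, 0.11 for Grin2a-206 and -0.0973 for Grin2d-201 between genotypes in hippocampus, -0.14 for *Grin2d*, 0.0307 for *Grin1*, -0.0634 for *Grin3a* and 0.12 for *Grin2a* in the interaction, -0.61 for Grin3a-202 and 0.12 for Grin1-206 between tissues in null mice. With DESeq2 size factors it was -0.000817 for *Grin2a* between genotypes in neocortex. Without a filter it was -0.00193 for *Grin2a* and 0.00629 for Grin2a-206 between genotypes in neocortex, 0.00276 for Grin3a-202 between tissues in WT mice. With DESeq2 it was -0.000802 for *Grin2a* between genotypes in neocortex, 0.000432 for Grin2d-201 between tissues in null mice. With the replicate block it was -0.0013 for *Grin2a* and 0.0236 for Grin3a-202 between genotypes in neocortex, 0.0351 for Grin1-207 and -0.00891 for Grin1-202 between genotypes in hippocampus, 0.42 for Grin3a-202 between tissues in WT mice, -0.0547 for Grin3a-202 between tissues in null mice. With all samples in one fit it was -0.00343 for *Grin2a* between genotypes in neocortex.

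Between genotypes in hippocampus, with 1 replicate left out, the lowest and highest differences were -0.0572 and 0.0396 for *Grin2a*, -0.0426 and 0.15 for *Grin2b*, -0.0761 and 0.0323 for Grin2c-201, -0.11 and 0.0986 for Grin1-202, -0.19 and 0.14 for Grin1-207, -0.999 and 0.41 for Grin2d-203, -0.0658 and 0.18 for Grin1-209, -0.058 and 0.0399 for Grin2a-206, -0.99 and 0.14 for Grin3a-202, -0.0224 and 0.32 for Grin1-214 and -0.0429 and 0.15 for Grin2b-201. Between genotypes in neocortex, with 1 replicate left out, the lowest and highest differences were -0.0554 and 0.0404 for *Grin2a*, -0.0134 and 0.11 for *Grin2d*, -0.11 and 0.21 for Grin1-214, -0.0682 and 0.0314 for Grin2a-206, -0.10 and 0.18 for Grin2c-202 and -0.0377 and 0.0846 for Grin2d-201. Between tissues in null mice, with 1 replicate left out, the lowest and highest differences were -0.14 and 0.0226 for *Grin2d*, -0.53 and 0.71 for Grin3a-202, -0.25 and 0.032 for Grin1-206 and -0.0752 and 0.0753 for Grin2d-201. In the interaction, with 1 replicate left out, the lowest and highest differences were -0.0931 and 0.0674 for *Grin3a*, -0.0678 and 0.0961 for *Grin2d*, -0.0585 and 0.0519 for *Grin2a* and -0.0614 and 0.0195 for *Grin1*. Between tissues in WT mice, with 1 replicate left out, the lowest and highest differences were -0.34 and 0.37 for Grin3a-202, -0.68 and 0.17 for Grin2d-203 and -0.10 and 0.076 for Grin1-209.

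Over all genes, edgeR called 17 between genotypes in hippocampus and DESeq2 139, or 85 with the offset, while one fit of all samples called 83 and a minimum of 10 counts 9. In neocortex the counts were 47 with edgeR, 240 with DESeq2, 184 with its offset, 30 with the offset in edgeR, 26 with the minimum of 10 counts and 566 without null replicate 5. The interaction had 3 with edgeR, 11 with DESeq2, 0 with the block, 1 with the offset in edgeR, 2 with the covariate and 1 without the 2 null hippocampus replicates. Of transcripts, DESeq2 called 108 and 206 between genotypes and the block 0 and 1, where edgeR called 10 and 9, and between tissues in null mice DESeq2 called 4283 and the block 1238, where edgeR called 2447.

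Low counts limit *Grin2d*, *Grin3b* and the rarer *Grin1* transcripts, and 5 samples a group limit all comparisons.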
